A study of Mus musculus with 30 samples.

Results

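The 40 genes described here are type I interferon response genes, which cells transcribe after interferon alpha or beta binds its receptor. They were chosen by name, from a list of interferon-induced genes found in all 5 deposited expression tables once Ensembl identifiers were paired with GENCODE M21 symbols, and not by a value measured here. They are 40 of 45706 listed genes. All 40 passed the filter on low values, which left 12614 genes for testing. By role, 3 belong to ISGylation, 16 are antiviral effectors, 5 are of the oligoadenylate synthetase family, 3 are transcription factors, 3 are RNA sensors, 1 is a DNA sensor, 3 act in ADP-ribosylation (the PARP and DTX proteins), 3 are immunity-related GTPases and 3 have other roles.

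Type I interferons bind the receptor chains IFNAR1 and IFNAR2, whose kinases JAK1 and TYK2 phosphorylate STAT2 among others. STAT2 and IRF9 are subunits of ISGF3, which binds the interferon-stimulated response element in the promoters of many interferon-induced genes. In osteoclast precursors RANKL is known to induce a little interferon beta, which acts through this receptor to restrain c-Fos and with it osteoclast formation.

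RNA-seq libraries were made from C57BL/6J bone marrow-derived macrophages that were cultured on slices of bone with RANKL (100 ng/ml), the cytokine that drives osteoclast formation, and M-CSF (25 ng/ml), which keeps the precursors alive. The 10 groups of 3 libraries were 519-marked Terc-/- cultures at 1 and 6 months of age, gaiwei-marked wild type at 1 month, unmarked Terc-/- at 1 and 6 months, unmarked wild type at 1, 6 and 20 months, all taken once large multinucleated cells had formed (large-cell cultures), and wild type at 6 and 20 months taken after 2 days. Terc encodes the RNA template of telomerase. The words 519 and gaiwei stand in the sample titles without explanation, and the labels give neither the sex of the mice nor whether marrow was pooled. Nothing says that the 3 libraries of a group came from separate animals or cultures, so a p-value measures the spread between these libraries, which may be technical.

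Values are deposited TPM scaled between libraries (scaled TPM), and read depth is unknown because the tables hold no counts. Libraries held 11270 to 12937 genes at 1 TPM or more. In large-cell wild type at 6 months, replicate 2 stood apart, with a mean correlation to its group of 0.910 and mt-Co1, a mitochondrially encoded respiratory chain subunit, at 3351 against 18710 and 19520 scaled TPM in the others. Terc reads 0 in each of the 12 Terc-/- libraries, and above 0 in only 3 of the 18 wild-type ones, so it does not check the genotype labels. In unmarked wild type at 1 month Xist, which female cells use to silence an X chromosome, lay at 51.6 to 70.8 scaled TPM, against no more than 0.199 in the other 27 libraries, so age, genotype or the mark cannot be told apart from sex wherever that group is compared. Acp5, the osteoclast acid phosphatase, lay at 98.8 to 214 scaled TPM in the 9 marked libraries and at 1866 to 10500 in the 15 unmarked large-cell ones, although both sets are labelled as large-cell cultures, and in 2-day cultures at 109 to 143 at 20 months against 13.4 to 18.7 at 6 months. The marked libraries are therefore named by their titles, not as osteoclasts.

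Promoter sequences are shown for 6 genes, since the response element that ISGF3 reads stands in the promoters of many interferon-induced genes. Windows of 250 bases before to 50 bases after the RefSeq start (GRCm38.p6) existed for 29 of the 40. The letters GAAA, any 2 bases and GAAA again, the core of the response element, stood on either strand in 17 of the 29 windows (58.6%), against 3.49% of the first windows of 27025 genes. The 6 genes shown are the first of a chosen panel whose windows held a match, so that each of them has one is no result. Oasl2, Irf7 and Irf9 of the same panel had a window without a match and were passed over. A match of letters is a description and not a bound site, and the windows without a match say nothing about the factor.

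The sequences run 5′ to 3′ on the strand of the gene, with the matches to the response element core, in this direction or as its reverse complement, in capitals. The window of Isg15 spans chr4:156200769-156201068 on the minus strand, that of Ifit1 chr19:34640639-34640938 on the plus strand and that of Ifit3 chr19:34583279-34583578 on the plus strand. The windows of Rsad2 (chr12:26456403-26456702, minus strand), Stat2 (chr10:128270248-128270547, plus strand) and Ddx58 (chr4:40239776-40240075, minus strand) follow.
Isg15: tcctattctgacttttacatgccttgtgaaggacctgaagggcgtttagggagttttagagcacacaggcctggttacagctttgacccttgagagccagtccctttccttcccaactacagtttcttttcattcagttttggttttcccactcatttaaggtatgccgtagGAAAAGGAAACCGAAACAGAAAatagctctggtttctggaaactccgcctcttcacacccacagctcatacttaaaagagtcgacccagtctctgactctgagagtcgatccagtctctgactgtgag
Ifit1: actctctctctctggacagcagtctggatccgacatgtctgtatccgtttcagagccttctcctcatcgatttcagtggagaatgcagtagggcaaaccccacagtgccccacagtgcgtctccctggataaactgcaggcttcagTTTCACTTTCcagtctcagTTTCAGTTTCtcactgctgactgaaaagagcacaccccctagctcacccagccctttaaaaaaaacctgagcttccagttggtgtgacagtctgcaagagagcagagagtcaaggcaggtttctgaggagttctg
Ifit3: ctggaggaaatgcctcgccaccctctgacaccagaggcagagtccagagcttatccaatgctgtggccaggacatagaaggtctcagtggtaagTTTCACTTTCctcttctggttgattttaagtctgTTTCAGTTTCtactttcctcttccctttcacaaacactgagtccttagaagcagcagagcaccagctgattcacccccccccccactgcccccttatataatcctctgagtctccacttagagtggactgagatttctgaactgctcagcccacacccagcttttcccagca
Rsad2: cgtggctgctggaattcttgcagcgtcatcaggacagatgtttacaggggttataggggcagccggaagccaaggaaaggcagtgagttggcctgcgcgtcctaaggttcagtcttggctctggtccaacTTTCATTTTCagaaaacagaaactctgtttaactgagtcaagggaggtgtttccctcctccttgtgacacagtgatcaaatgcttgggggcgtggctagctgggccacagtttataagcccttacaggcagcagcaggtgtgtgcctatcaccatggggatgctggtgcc
Stat2: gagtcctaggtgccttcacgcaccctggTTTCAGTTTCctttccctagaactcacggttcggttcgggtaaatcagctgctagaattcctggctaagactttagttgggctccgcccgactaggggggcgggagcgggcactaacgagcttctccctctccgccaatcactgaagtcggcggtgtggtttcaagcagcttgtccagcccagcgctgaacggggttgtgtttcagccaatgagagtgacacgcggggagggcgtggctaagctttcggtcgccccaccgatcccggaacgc
Ddx58: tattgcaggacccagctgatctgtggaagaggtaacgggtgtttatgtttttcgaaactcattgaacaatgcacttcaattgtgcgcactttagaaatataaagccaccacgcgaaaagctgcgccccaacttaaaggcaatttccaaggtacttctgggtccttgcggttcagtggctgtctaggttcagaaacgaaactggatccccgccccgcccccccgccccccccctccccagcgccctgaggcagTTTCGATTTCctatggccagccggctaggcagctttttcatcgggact
Isg15 held 3 overlapping matches that began 78, 72 and 66 bases before the start. Ifit1 held 2 matches in the reverse direction, at 104 and 85 bases before the start, and Ifit3 also held 2, at 156 and 122 bases before it. Rsad2 and Stat2 held 1 match each, 120 and 222 bases before the start, while the match of Ddx58 began 2 bases after it.

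Several members lie side by side in the genome. On chromosome 19, Ifit2, Ifit3, Ifit3b and Ifit1 follow one another between 34550694 and 34650009 (GRCm38, GENCODE M21), and on chromosome 12 Rsad2 and Cmpk2 face away from each other 12751 bases apart. Dtx3l and Parp9 overlap by 682 bases on opposite strands of chromosome 16. The counting step is not stated to use strand, so reads in that overlap cannot be assigned. Near-identical copies make some values uncertain: 57.6% of the 50-base stretches of Oas1a also occur in another gene, chiefly Oas1g, and 51.2% of those of Ifit3 and 45% of those of Ifit3b also occur in another gene, chiefly each in the other.

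Across the 30 libraries the members averaged between 1.55 scaled TPM (Mx2, annotated as a polymorphic pseudogene) and 574 scaled TPM (Bst2, which tethers budding virions to the cell surface). They varied more between groups than most genes did. The difference between the highest and lowest group mean had a median of 2.43 on the log2 scale over the 40 members, against 1.13 over all genes tested, and ran from 0.82 for Eif2ak2, the kinase that halts translation on sensing double-stranded RNA, to 4.29 for Ifi44, an interferon-induced microtubule-associated protein. The lowest mean fell in the 6-month 2-day cultures for 28 of the 40, and in a marked group for 11 of the other 12. The highest mean fell in unmarked 1-month wild type for 16 members, in unmarked 1-month Terc-/- for 8, in 20-month large-cell wild type for 8 and in unmarked 6-month Terc-/- for 5.

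**Figure D1:**
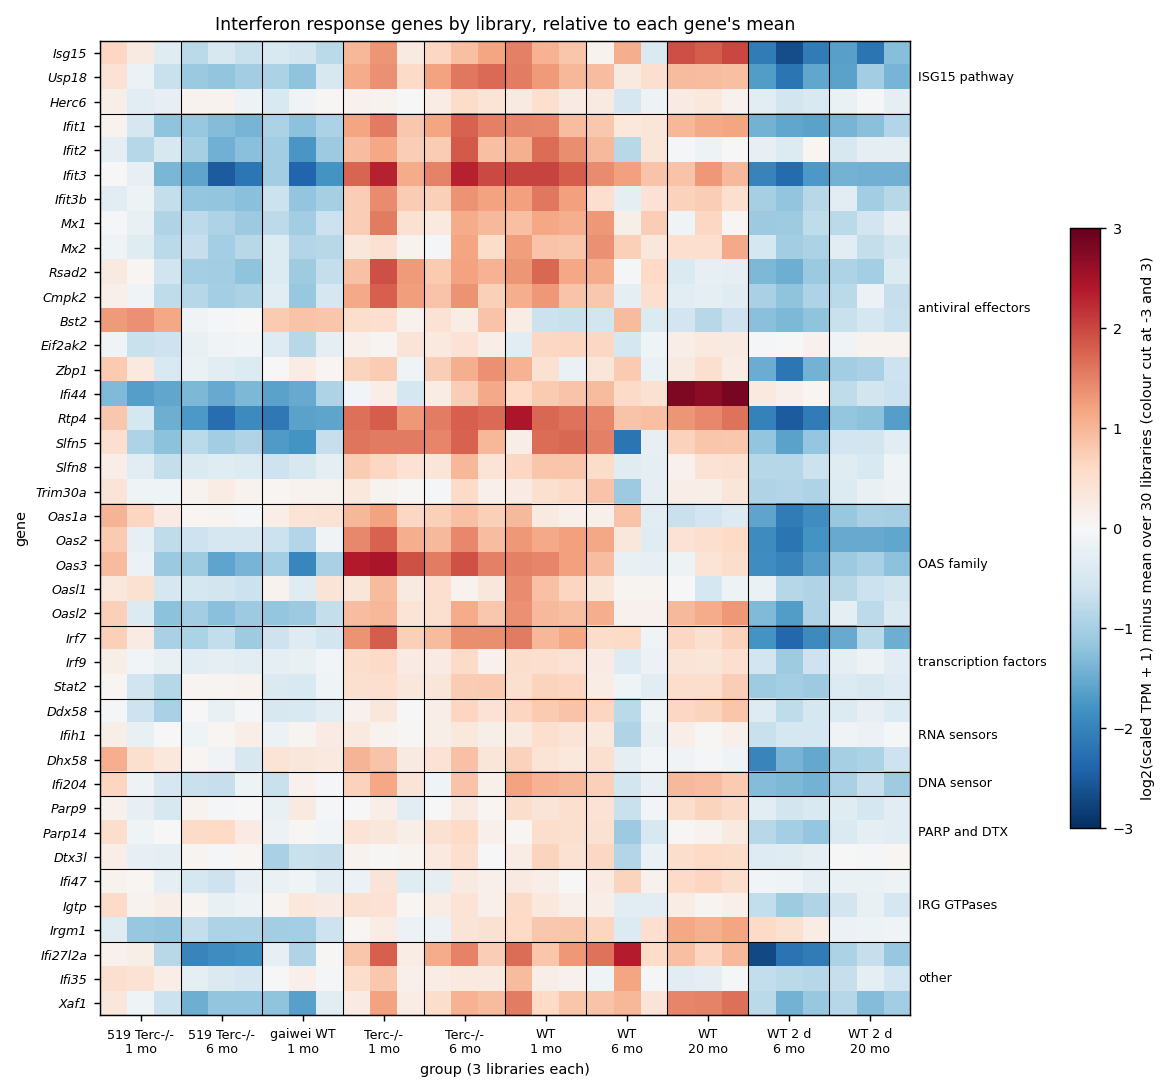
Scaled expression of the 40 interferon response genes (rows, ordered by role) in the 30 libraries (columns, by group), with each row centred on its own mean in log2(scaled TPM + 1). Most rows are blue, below their mean, in the 2-day libraries, and the lowest group mean of 28 members lies in the 6-month 2-day cultures.

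The interferon genes themselves were at or near 0. Summed over 21 listed ligand genes, levels reached at most 0.579 scaled TPM in any library, 14 of the 21 were listed at 0 in all 30, Ifnb1 among them, and none passed the filter. Markers of plasmacytoid dendritic cells, which make much type I interferon, summed to 15.7 to 51.9 scaled TPM over 8 genes, of which Tcf4, a transcription factor of many cell types, made up 14.5 to 49.9. Siglech, their defining surface receptor, reached at most 0.198. It was at 0 in all 20-month, 6-month 2-day, 519-marked 1-month and gaiwei-marked libraries. T and NK cell markers summed to 0 to 2.77 over 9 genes, with 4 at 0 throughout. The receptor chains were expressed in every library. Ifnar2 lay between 196 and 311 scaled TPM in the marked libraries and between 66.4 and 126 in the unmarked ones, so these ranges did not overlap.

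Most of the interferon response genes rose with differentiation, at both ages at which 2-day cultures were sequenced. A gene was called where its limma p, adjusted by Benjamini-Hochberg over the 12614 genes, was under 0.05. In large-cell against 2-day cultures at 6 months, 31 of 40 members were called higher and 0 lower, where 24.6% of all genes tested were higher and 25.1% lower. At 20 months 27 were called higher and 0 lower, where the shares of all genes were 18.7% and 17.5%. By limma's unadjusted p under 0.05, 31 members were higher at 6 months and 29 at 20 months, and 0 were lower, as in each direction that is given below as having 0 members called. The median log2 change of the 40 was 1.26 at 6 months and 1.01 at 20 months, against -0.02 and 0.004 over all genes tested. In 29 members at 6 months all large-cell libraries lay above all 2-day ones, and in 36 at 20 months, where this held for 22.2% and 31.6% of all genes. These are bulk cultures, so more cells with an active response and more RNA per cell cannot be told apart.

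**Figure D2:**
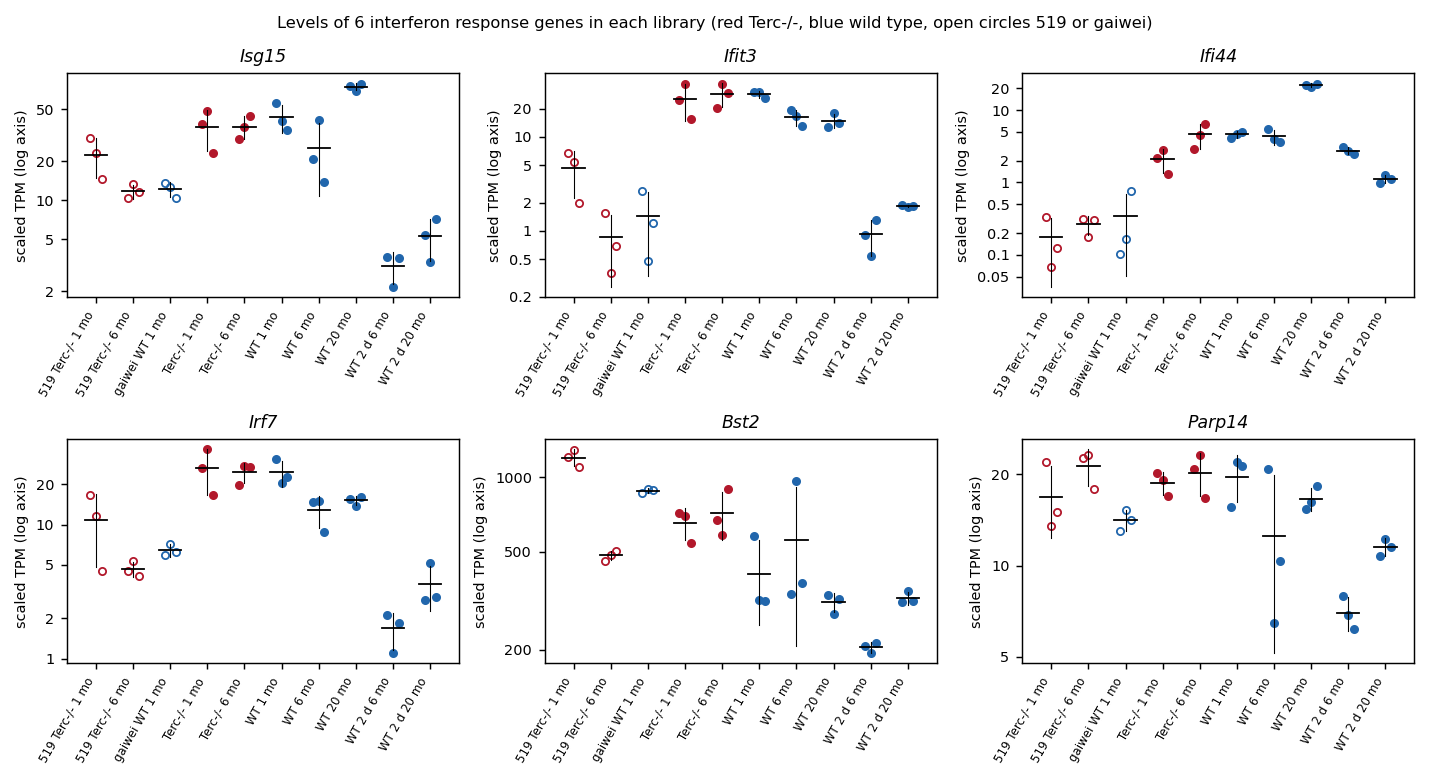
Scaled TPM (log axis) of Isg15, Ifit3, Ifi44, Irf7, Bst2 and Parp14 in each library of the 10 groups, with points for libraries and bars for mean ± SD (n = 3; the lower bar of Ifi44 in gaiwei-marked wild type is cut because it would pass below 0). Isg15 lies at 69.5 to 78.5 in 20-month large-cell cultures and at 2.15 to 7.17 in all 2-day libraries, while Bst2 has its highest values, 1105 to 1297, in 519-marked 1-month Terc-/-.

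Among the genes of ISGylation, the attachment of the ubiquitin-like protein ISG15 to other proteins, Isg15 itself lay at 75.1, 69.5 and 78.5 scaled TPM in 20-month large-cell cultures, against 5.46, 3.36 and 7.17 in 20-month 2-day ones. At 6 months it lay at 20.6, 41.3 and 13.7 in large-cell cultures, against 3.68, 2.15 and 3.64 in 2-day ones. The groups did not overlap at either age, and Isg15 was higher by 3.62 ± 0.32 (log2 ± SE, adjusted p = 4.2e-09 by limma) at 20 months and by 2.54 ± 0.32 (adjusted p = 9.82e-07) at 6 months. Usp18, the protease that removes ISG15 and also restrains the receptor, lay at 12.1, 11.8 and 11.7 in 20-month large-cell cultures and at 1.22, 2.27 and 1.55 in 20-month 2-day ones, without overlap, and rose by 2.36 at 6 months and 2.28 at 20 months. Herc6, the mouse ligase that attaches ISG15, differed by 0.32 (adjusted p = 0.112) and 0.41 (adjusted p = 0.0588) and did not pass.

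Of the 16 antiviral effectors, 13 rose at 6 months and 9 at 20 months. Ifit3, of the family of proteins that bind foreign RNA ends, lay at 19.2, 16.8 and 12.9 scaled TPM in 6-month large-cell cultures and at 0.913, 0.537 and 1.31 in 6-month 2-day cultures. It did not overlap between these groups and was higher by 3.18 ± 0.34. Mx1, of the Mx GTPase family, lay at 1.03, 2.38 and 1.31 in 20-month large-cell cultures and at 0.260, 0.469 and 0.809 in 20-month 2-day ones. These groups did not overlap either (0.75 ± 0.29, adjusted p = 0.0463 by limma). Rtp4, which in mice dampens the interferon response, was higher by 3.29 ± 0.35 at 6 months and by 2.81 ± 0.35 at 20 months. Some effectors did not pass at either age. Ifit2 differed by 0.38 (adjusted p = 0.331) at 6 months and 0.28 (adjusted p = 0.536) at 20 months, and Eif2ak2 by -0.04 (adjusted p = 0.909) and 0.21 (adjusted p = 0.52).

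All 5 oligoadenylate synthetase family genes, whose active members make the second messenger that switches on RNase L, rose at 6 months and 3 of 5 at 20 months. Oasl2 lay at 38.2, 42.1 and 48.0 scaled TPM in 20-month large-cell cultures and at 15.2, 10.6 and 13.7 in 20-month 2-day ones, without overlap (1.64 ± 0.33, adjusted p = 0.000332 by limma). All 3 transcription factors rose at both ages. Stat2 lay at 17.99, 17.99 and 21.1 scaled TPM in 20-month large-cell cultures and at 8.81, 8.47 and 9.04 in 20-month 2-day ones, with no overlap. Irf7, which amplifies interferon production, lay at 14.6, 14.9 and 8.87 in 6-month large-cell cultures and at 2.10, 1.10 and 1.83 in 6-month 2-day ones, again with no overlap. Irf9, the DNA-binding subunit of ISGF3, lay at 20.4, 19.9 and 22.0 in 20-month large-cell cultures and at 12.3, 13.7 and 12.2 in 20-month 2-day ones, a smaller change of 0.67 ± 0.15 (adjusted p = 0.00118) that did not overlap either.

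Among the RNA sensors Dhx58, a regulator of the other RIG-I-like receptors, rose at both ages, Ddx58 (RIG-I itself) by 1.06 ± 0.24 at 20 months while its 6-month change (0.46, adjusted p = 0.105) did not pass, and Ifih1 (MDA5) passed at neither. At 20 months Ddx58 lay at 23.3, 24.1 and 27.1 scaled TPM in large-cell and 10.9, 12.4 and 10.9 in 2-day cultures. Ifih1 lay closer, at 7.85, 6.90 and 7.58 in large-cell and 6.17, 5.85 and 6.51 in 2-day cultures (0.23, adjusted p = 0.36 by limma). Neither overlapped. Ifi204, a sensor of DNA, rose at both ages, and at 20 months lay at 29.9, 29.0 and 26.4 in large-cell against 7.02, 8.80 and 6.61 in 2-day cultures. Of the 3 genes of ADP-ribosylation, Parp14 (0.63) rose at 6 months and Parp9 and Dtx3l (0.56) at 20 months. Of the 3 immunity-related GTPases, which act on the vacuoles of intracellular pathogens, 2 rose at 6 months and 3 at 20 months, with Igtp at 9.44, 8.38 and 8.90 in 20-month large-cell against 5.10, 6.63 and 5.32 in 20-month 2-day cultures. Ifi47, of the same family, lay at 19.7, 20.6 and 18.9 against 11.02, 11.1 and 11.4. Both were among the smaller changes, with log2 differences of 0.57 and 0.77 at 20 months. Ifi27l2a, a mitochondrial protein, had the highest change of any member at 6 months, with 97.1, 162 and 46.0 scaled TPM in large-cell cultures against 3.86, 5.85 and 6.40 in 2-day ones (3.86 ± 0.38, adjusted p = 3.43e-08 by limma).

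The change with differentiation itself differed between 20 and 6 months for 8 members, 2 higher and 6 lower, where 12.4% of all genes were higher and 12.6% lower. Ifi44 had by far the largest difference. It lay at 22.4, 20.6 and 23.1 scaled TPM in 20-month large-cell cultures against 0.975, 1.28 and 1.13 in 20-month 2-day ones. At 6 months it lay at 5.46, 3.96 and 3.57 in large-cell against 3.06, 2.71 and 2.47 in 2-day cultures. Neither pair of groups overlapped, and the 20-month change exceeded the 6-month one by 2.94 ± 0.29 (adjusted p = 2.68e-07 by limma). Irgm1, which guards against vacuolar pathogens, followed with 1.46 ± 0.32 (adjusted p = 0.00163). It lay at 99.4, 92.9 and 100.3 scaled TPM in 20-month large-cell cultures against 38.99, 39.4 and 40.3 in 2-day ones, and overlapped at 6 months. The 6 members with a smaller change at 20 months were Ifi27l2a (-2.09), Oas1a (-1.60), Rsad2 (-1.40), Bst2 (-1.33), Cmpk2 (-1.13) and Dhx58 (-0.92). For Rsad2, which makes a chain-terminating nucleotide against viral polymerases, large-cell cultures lay at 1.65, 2.00 and 1.94 scaled TPM at 20 months and at 6.78, 2.43 and 4.38 at 6 months.

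**Figure D3:**
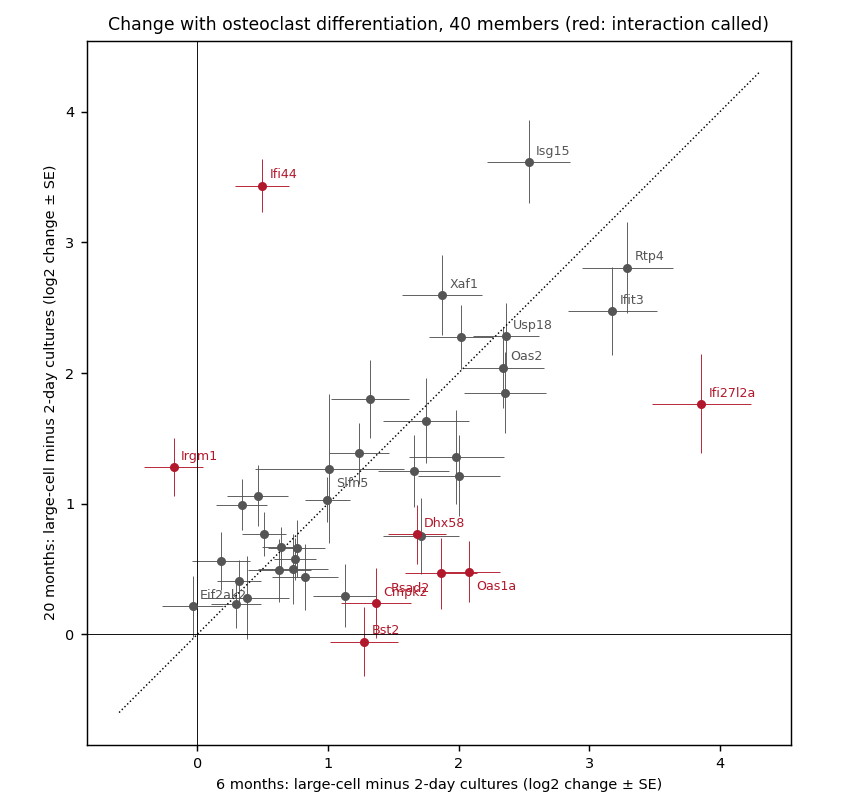
Log2 change of each member in large-cell against 2-day cultures, at 6 months (x axis) and 20 months (y axis), with bars for the standard error, a dotted line of equal change and red points where the difference between ages was called. Ifi44 stands far above the line and Ifi27l2a below it, and 38 of 40 members are positive at 6 months and 39 of 40 at 20 months.

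Other genes of the pathway moved in both directions with differentiation. Of 64 further interferon-induced genes tested, 39 rose and 4 fell at 6 months, and 30 rose and 7 fell at 20 months, among them Cxcl10, a chemokine, and Ly6a (Sca-1), which rose by 2.68 and 2.74 at 6 months. Of 9 receptor, kinase and transducer genes, 3 rose and 3 fell at 6 months and 2 rose and 2 fell at 20 months. Of 17 genes that sense nucleic acids or switch interferon on, 6 rose and 0 fell at 6 months, whereas 3 rose and 5 fell at 20 months, where Cgas, the cytosolic DNA sensor, fell by 1.37 and Irf8 by 1.11.

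All 11 osteoclast markers were called higher in large-cell cultures at both ages. B cell markers summed to 63.8 to 85.8 scaled TPM in 20-month 2-day cultures and to 1.88 to 5.46 in 6-month ones. Stromal cell and osteoblast markers summed to 3453 to 4270 in large-cell against 831 to 1082 in 2-day cultures at 20 months, with 5 of 9 higher, among them Ogn (3.43) and Col1a1 (2.63), and 1 lower. At 6 months they summed to 1120 to 1240 against 2345 to 2707, with 0 higher and 3 lower. The neutrophil marker S100a9 fell by 4.51 at 20 months. The part of these in the interferon response genes was not tested. Without 6-month replicate 2, 36 members were called higher at 6 months and 3 higher and 7 lower in the difference between ages. With a separate variance for each group, 18 members were called higher at 6 months. Without scaling, the median of all genes moved by -0.36 at 6 months, and the share of called genes that were higher was 23.4% at 6 months and 39.8% at 20 months, against 49.5% and 51.7% with it. The median of the members was then 0.94 and 0.91.

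With age, Ifi44 was called in every setting tried in all 3 comparisons of 20-month cultures, lower after 2 days and higher in large-cell cultures. The direction of the other members depended on the stage and on which ages were compared. After 2 days, 6 of 40 members were called higher and 1 lower at 20 than at 6 months, where the shares of all genes were 8.54% and 8.77%. The median log2 difference of the 40 was 0.47, with the 20-month libraries all above the 6-month ones in 26 members and all below in 2, where this held for 25.3% and 25.9% of all genes. Ifi27l2a lay at 15.6, 18.8 and 13.6 scaled TPM at 20 months against 3.86, 5.85 and 6.40 at 6 months, without overlap (1.43 ± 0.38, adjusted p = 0.0111 by limma). Oas1a, Dhx58, Stat2, Irf9 and Igtp rose by 0.47 to 0.82, and Ifi44 fell by 0.81 ± 0.20 (adjusted p = 0.0072). Without 20-month replicate 3 there were 2 members called higher, and 3 without 20-month replicate 4 or 6-month replicate 2. Leaving out the 6-month large-cell library that stood apart, which enters only the shared spread, gave 10 higher and 2 lower. With only these groups in the fit 19 members were called higher, and with one variance per group 22. Further genes of the pathway rose in the same cultures: 19 of 64 interferon-induced genes (1 fell) and 8 of 17 sensing genes (none fell), among them Irf8 by 0.71 and Cgas by 0.87. Markers of several cell types differed between the same cultures. Osteoclast markers summed to 613 to 647 scaled TPM at 20 months against 284 to 458 at 6 months, with 6 of 11 higher, among them Acp5 (2.87) and Ctsk (2.38). Macrophage markers summed to 26390 to 29830 against 16040 to 18280, with 4 of 10 higher, and neutrophil markers to 17.1 to 54.2 against 0.931 to 2.02, with S100a9 4.38 higher. Stromal cell and osteoblast markers summed to 831 to 1082 at 20 months against 2345 to 2707 at 6 months, with 5 of 9 lower, and B cell markers were higher at 20 months, as given above. The part of these in the interferon response genes was not tested.

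In large-cell cultures, 9 members were called higher and 2 lower at 20 than at 6 months, where the shares of all genes were 12.7% and 14.9%. Ifi44 was 2.13 ± 0.20 higher (adjusted p = 1.58e-07 by limma), with 22.4, 20.6 and 23.1 scaled TPM at 20 months against 5.46, 3.96 and 3.57 at 6 months. It was the only 1 of these 11 calls kept under all 15 alternatives. Isg15 was 1.66 ± 0.32 higher (adjusted p = 0.000639), with no overlap, whereas Rsad2 was 0.87 lower and Oas1a 0.79 lower. The other 7 that were higher were Ifi204, Irgm1, Ddx58, Dtx3l, Parp9, Stat2 and Irf9. The 6-month group holds the library that stood apart: without it 3 members were called higher and 2 lower, and without replicate 1 of that group 20 were called higher. Without 6-month replicate 4 there were 5 called lower, without 20-month replicate 4 there was 1, and without 20-month replicate 1 there were 0. Without scaling, 71.2% of called genes were higher, against 46.2% with it, and 0 members were called lower. Stromal cell and osteoblast markers summed to 3453 to 4270 scaled TPM at 20 months against 1120 to 1240 at 6 months in these cultures. Osteoclast markers summed to 15300 to 24560 against 10420 to 13280, with Oscar (1.38), Calcr (1.03) and Ctsk (0.81) called higher and the others not called. Macrophage markers summed to 13800 to 19930 against 23290 to 28190, but single genes went both ways. Lyz2 (-0.82) and Fcgr1 (-0.56) were lower, Mrc1 (1.11) was higher and the others were not called. The part of all these markers was not tested.

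Against 1-month wild type, which held the libraries with Xist, 1 member was higher and 8 lower at 20 months, where the shares of all genes were 9.2% and 13%. Ifi44 was again the higher one, with 22.4, 20.6 and 23.1 scaled TPM at 20 months against 4.05, 4.74 and 5.04 at 1 month (2.04 ± 0.20, adjusted p = 1.14e-07 by limma). Rsad2 fell by 1.73 ± 0.28 (adjusted p = 6.63e-05), with 1.65, 2.00 and 1.94 against 7.93, 10.9 and 7.03 and no overlap. Ifit2 (-1.45), Cmpk2 (-1.41), Oasl1 (-1.21), Oas3, Oas1a, Mx1 (-0.86) and Ifit3b (-0.71) also fell. Without 1-month replicate 3 or 20-month replicate 1 there were 5 lower. At 6 months, 12 members were called lower than at 1 month and 0 higher, where the shares of all genes were 5.71% lower and 3.87% higher. All 6-month libraries lay below all 1-month ones in 16 members and above in 0, where this held for 8.08% and 6.03% of all genes. The 12 called members included 5 antiviral effectors, 2 oligoadenylate synthetase family genes, 2 transcription factors, 2 RNA sensors and Ifi204, with Oas3 (-1.26), Ifit2 (-1.21) and Ifit3b (-1.13) lowest and Irf9 (-0.59) nearest to 0. That count rests on single libraries: it was 1 without 1-month replicate 3, 4 without 1-month replicate 4, 5 without 6-month replicate 4, 3 without 6-month replicate 2 and 28 without 6-month replicate 1, and 0 with only these groups in the fit, where 27 had an unadjusted p under 0.05 in the fit of all groups. Of the 64 other interferon-induced genes 1 was higher and 10 lower at 6 months, and 5 were higher and 13 lower at 20 months.

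Some interferon response genes were called higher in Terc-/- than in wild-type cultures at 6 months, and few differed at 1 month. None of the 6-month calls was kept under all 15 alternatives tried. At 6 months 12 of 40 members were called higher and 0 lower in unmarked Terc-/- against wild-type large-cell cultures, where the shares of all genes were 15.7% and 13.1%. At an unadjusted p under 0.05 there were 21 higher. The median log2 difference of the 40 was 0.51. The libraries of both groups did not overlap in 8 members, all higher in Terc-/-, where this held upward for 14.7% of all genes. By role the 12 called were all 3 transcription factors, 5 antiviral effectors, Usp18 and Herc6 of ISGylation, Oas3 and Parp14, an antiviral ADP-ribosyltransferase. The smallest changes were those of Irf9 (0.43), Herc6 (0.53) and Slfn8 (0.62). The 6-month wild-type libraries used here also enter the comparisons of stage and age above, and the unmarked groups those with marked libraries, so these comparisons are not independent of each other.

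Stat2 lay at 15.8, 21.4 and 21.6 scaled TPM in 6-month Terc-/- cultures, against 14.4, 11.1 and 9.55 in wild type. These did not overlap, and Stat2 was 0.71 ± 0.17 higher (adjusted p = 0.00323 by limma). Ifit1, of the RNA-binding IFIT family, lay at 9.08, 14.3 and 11.7 in Terc-/- against 6.80, 4.56 and 4.71 in wild type, again without overlap (1.00 ± 0.25, adjusted p = 0.00382). Oas3 lay at 12.7, 16.9 and 12.4 in Terc-/- against 7.93, 3.06 and 2.95 in wild type, also without overlap (1.51 ± 0.36, adjusted p = 0.00325). Slfn5, a Schlafen family nuclear protein, had the largest change, 1.72 ± 0.57 (adjusted p = 0.0261), but overlapped: it lay at 24.3, 30.1 and 17.3 in Terc-/- against 25.1, 0.990 and 6.69 in wild type, where the lowest value belongs to the library that stood apart. Isg15 differed by 0.65 (adjusted p = 0.125), with 29.7, 36.4 and 44.4 against 20.6, 41.3 and 13.7. Without wild-type replicate 2, 9 members were called higher, and Bst2 became one of them (0.99 ± 0.19, adjusted p = 0.000468). Without Terc-/- replicate 2 the count was 5, without wild-type replicate 4 it was 7, and without wild-type replicate 1 it was 23. No call of these 12 was kept under all 15 alternatives, and 0 were made with a variance for each group or with only these groups in the fit.

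Regulators of the pathway also differed at 6 months. Of 14 negative regulators 8 were higher in Terc-/- and 0 lower, among them the JAK inhibitors Socs1 (1.45) and Socs3 (1.38). Of 17 sensing genes 8 were higher and 1 lower, of 9 receptor and transducer genes 4 were higher and 0 lower, and of 64 other interferon-induced genes 15 were higher, Cd274 (PD-L1, 2.20 ± 0.22) among them, and 6 lower. Markers of other cells moved with the genotype at this age. Of 10 macrophage markers 6 were higher in Terc-/- and 0 lower, led by Adgre1 (F4/80, 2.09), and the 10 summed to 34410 to 45190 scaled TPM in Terc-/- against 23290 to 28190 in wild type. Of 9 stromal cell and osteoblast markers 7 passed the filter and 5 were lower, among them Ogn (-2.53) and Col1a1 (-1.13), with sums of 315 to 1003 in Terc-/- against 1120 to 1240 in wild type. Saa3, an acute-phase protein, lay at 1959 to 6484 in Terc-/- against 77.8 to 538 in wild type. None of these ranges overlapped, and their part in the interferon response genes was not tested.

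At 1 month 1 member was called higher and 3 lower in unmarked Terc-/- against unmarked wild type, where the shares of all genes were 15.4% and 15.6%. Bst2 was 0.74 ± 0.26 higher (adjusted p = 0.0353 by limma), with 717, 700 and 542 scaled TPM in Terc-/- against 581, 319 and 315 in wild type, which overlapped. Ifi44 was 0.88 ± 0.20 lower (adjusted p = 0.00195), with 2.15, 2.83 and 1.31 against 4.05, 4.74 and 5.04 and no overlap, and this was the call kept under all 14 alternatives. Irgm1 (-0.71) and Parp9 (-0.52) were also lower. The call of Bst2 was lost without Terc-/- replicate 1 or 3 or wild-type replicate 3 or 4, with 2 called higher without wild-type replicate 1, and 1 member was called lower without Terc-/- replicate 4 or wild-type replicate 3 or 4. Xist splits the same groups, and its part cannot be told apart. Stromal cell and osteoblast markers summed to 156 to 263 scaled TPM in Terc-/- against 785 to 2833 in wild type at this age. Macrophage markers summed to 36850 to 43300 against 21100 to 33910, and the part of these markers was not tested. The genotype difference at 6 months exceeded that at 1 month for Ifit3b (1.24 ± 0.33, adjusted p = 0.0323) and Stat2 (0.86 ± 0.24, adjusted p = 0.0447), 2 of 40 members, with 0 lower, where the shares of all genes were 2.79% and 0.785%. Neither was called without 6-month wild-type replicate 2, 6-month Terc-/- replicate 2 or 4, 1-month Terc-/- replicate 1 or 4, or 1-month wild-type replicate 3. The count was 1 without 1-month Terc-/- replicate 3, 1-month wild-type replicate 4 or 6-month wild-type replicate 4, 4 without 1-month wild-type replicate 1, 8 without 6-month Terc-/- replicate 1 and 16 without 6-month wild-type replicate 1.

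Within unmarked Terc-/- cultures, 1 member was higher and 0 lower at 6 than at 1 month, where the shares of all genes were 2.93% and 1.05%. This was Ifi44, with 2.92, 4.57 and 6.33 scaled TPM at 6 months against 2.15, 2.83 and 1.31 at 1 month (0.84 ± 0.20, adjusted p = 0.016 by limma). The libraries of the 2 ages did not overlap in 2 members, both higher at 6 months, where 10.6% of all genes did so upward and 10.1% downward. The call was lost without Terc-/- replicate 4 at 1 month or without replicate 2 or 4 at 6 months. Saa3 lay at 1959 to 6484 scaled TPM at 6 months against 223 to 363 at 1 month. Eif2s3y, a gene of the Y chromosome, lay at 57.7 to 77.5 against 13.9 to 17.0. Stromal cell and osteoblast markers summed to 315 to 1003 against 156 to 263, while the sums of osteoclast and of macrophage markers overlapped. The part of these differences was not tested.

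**Figure D4:**
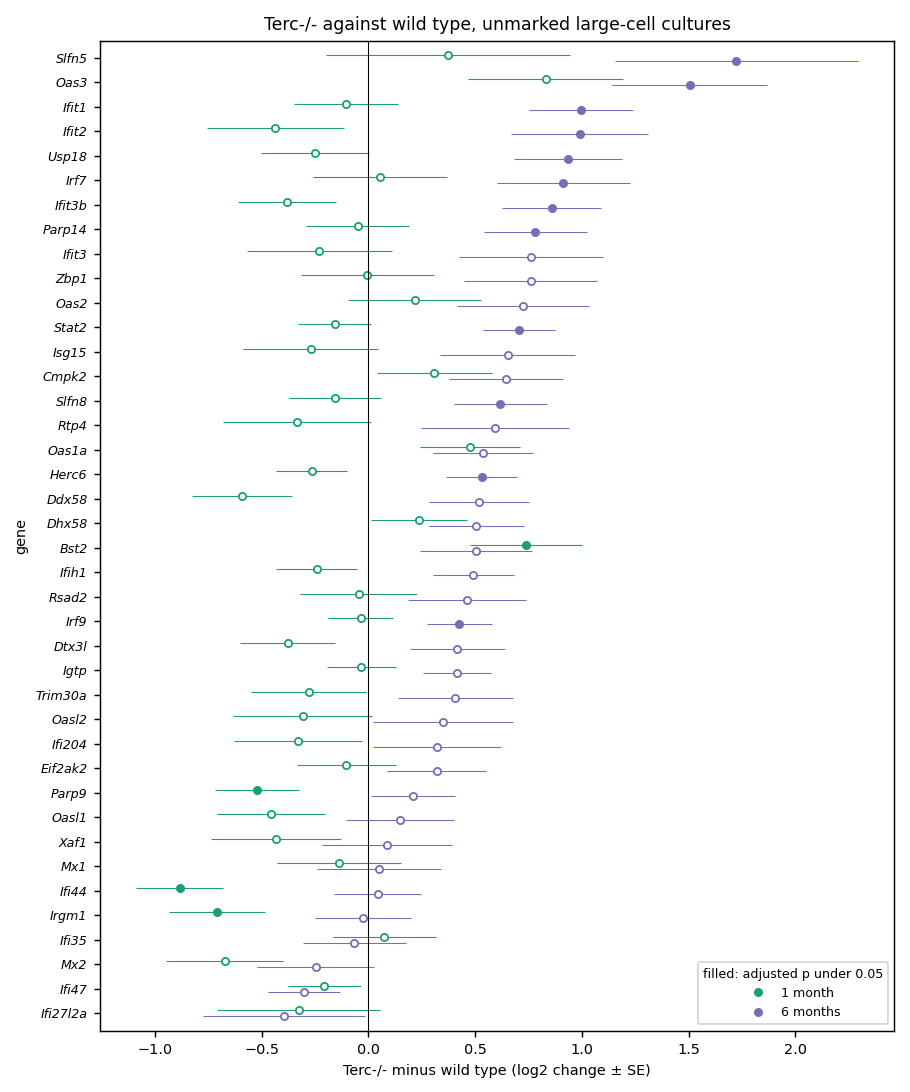
Log2 difference of each member in unmarked Terc-/- against wild-type large-cell cultures at 1 month (green) and 6 months (purple), with bars for the standard error and filled points where the difference was called. At 6 months the 12 filled points all lie above 0, and at 1 month Ifi44 lies lowest (-0.88) and Bst2 is the only filled point above 0.

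Most members were lower in each marked group than in its unmarked counterpart. In gaiwei-marked against unmarked wild type at 1 month, 29 of 40 members were called lower and 1 higher, where the shares of all genes were 22.4% and 24.2%. In 519-marked against unmarked Terc-/- cultures at 6 months 29 were lower and 0 higher, where the shares of all genes were 13.8% and 14.4%. At 1 month 23 were lower and 1 higher, where the shares were 15.1% and 18.5%. All marked libraries lay below all unmarked ones in 33, 34 and 21 members in the same order, where this held for 25.3%, 24.6% and 25.6% of all genes. The median log2 difference of the 40 was -1.46, -1.23 and -0.74 in these comparisons. In the same order, 28 of 30, 24 of 29 and 16 of 24 of these calls were kept under all 14 alternatives tried.

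By role, 13 of 16 antiviral effectors and all 3 transcription factors were lower in each of the comparisons. Ifih1, Igtp, Parp9, Parp14 and Trim30a, a ubiquitin ligase, passed in none. No gene of ADP-ribosylation was called in either 519-marked comparison. Ifit3 lay at 1.54, 0.358 and 0.688 scaled TPM in 519-marked against 20.3, 36.8 and 29.4 in unmarked 6-month Terc-/- cultures. It lay at 2.69, 0.476 and 1.20 in gaiwei-marked against 30.03, 29.9 and 25.8 in unmarked 1-month wild type. Neither pair overlapped, and the differences were -4.01 ± 0.34 (adjusted p = 3.26e-09 by limma) and -3.69. Rtp4 was 3.70 lower in gaiwei-marked wild type and 3.65 lower in 519-marked 6-month Terc-/-, while in 519-marked 1-month Terc-/- Oas3 (-2.35), Ifit3 (-2.26) and Slfn5 (-2.13) changed most. The smallest falls were those of Herc6 (-0.52) in gaiwei-marked wild type, Ifi47 (-0.51) and Stat2 (-0.55) in 519-marked 6-month Terc-/- and Irf9 (-0.49) in 519-marked 1-month Terc-/-. Ifi44 was at no more than 0.752 scaled TPM in any of the 9 marked libraries, against at least 1.31 in the unmarked large-cell ones. Isg15 fell by 1.74 ± 0.32 in gaiwei-marked wild type and by 1.56 ± 0.32 in 519-marked 6-month Terc-/-, and differed by -0.68 (adjusted p = 0.101) in 519-marked 1-month Terc-/-.

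Bst2 went the other way at 1 month. It lay at 1208, 1297 and 1105 scaled TPM in 519-marked against 717, 700 and 542 in unmarked Terc-/- cultures, and at 861 to 896 in gaiwei-marked against 315 to 581 in unmarked wild type. No range overlapped, and Bst2 was higher by 0.89 ± 0.26 (adjusted p = 0.0109 by limma) and 1.19 ± 0.26 (adjusted p = 0.000667). At 6 months it lay at 460, 486 and 502 in 519-marked against 671, 584 and 893 in unmarked Terc-/-, a difference of -0.55 that did not pass (adjusted p = 0.131). Without replicate 4 of the unmarked 1-month Terc-/- cultures, Bst2 was not called in the 519-marked 1-month comparison.

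Most called genes of the signalling chain above the response were higher. Of the 9 receptor and transducer genes, 6 were higher and 1 lower in gaiwei-marked wild type, 5 and 1 in 519-marked 6-month Terc-/- and 4 and 0 in 519-marked 1-month Terc-/-. Ifnar2 was higher by 1.38 ± 0.16 in gaiwei-marked wild type (adjusted p = 1.19e-07 by limma). Socs1, which blocks JAK kinases, lay at 48.5, 83.4 and 33.7 scaled TPM in gaiwei-marked against 1.42, 0.731 and 0.733 in unmarked wild type. In 519-marked 6-month Terc-/- cultures it lay at 66.2, 83.8 and 76.5, against 3.12, 2.86 and 6.35 in unmarked ones. Socs1 did not overlap in either and was higher by 4.76 ± 0.25 (adjusted p = 7.08e-13) and 3.96 ± 0.25 (adjusted p = 4.93e-11). Of the 64 other interferon-induced genes, 11 were higher and 23 lower in gaiwei-marked wild type, 9 and 20 in 519-marked 6-month and 10 and 13 in 519-marked 1-month Terc-/-.

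**Figure D5:**
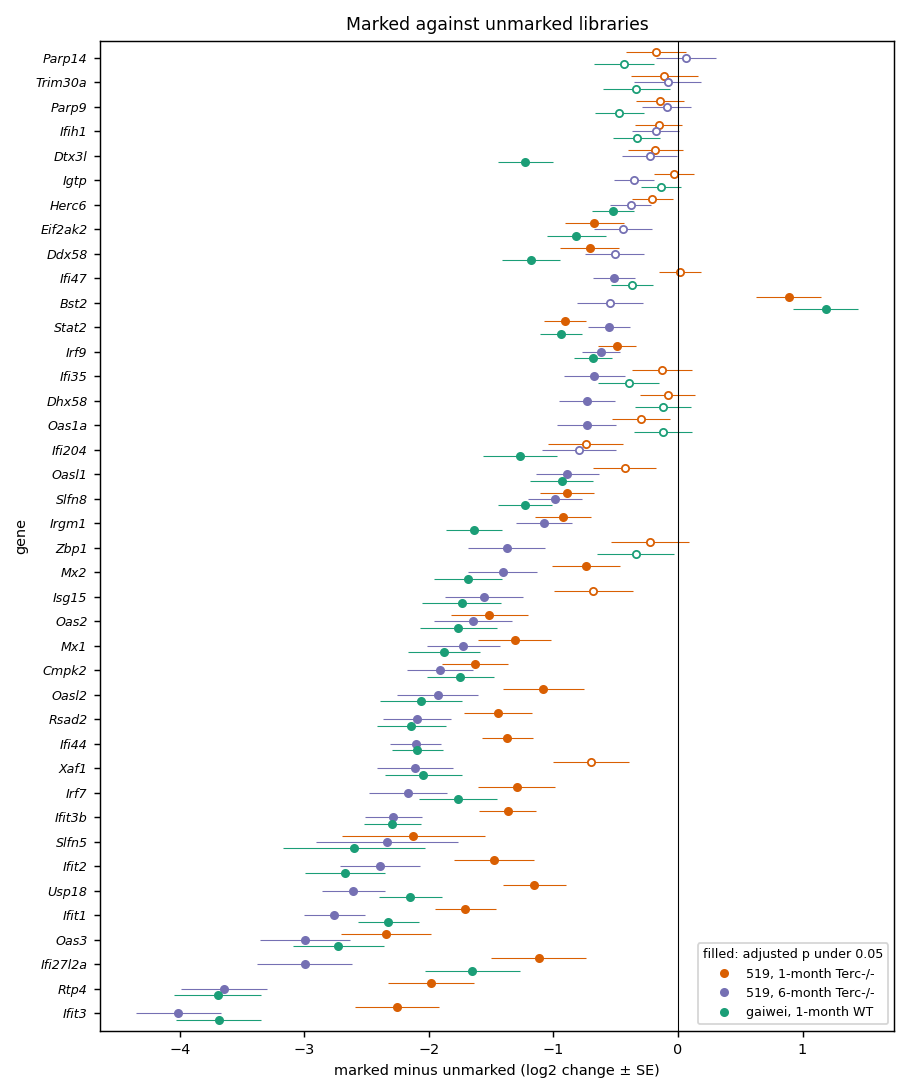
Log2 difference of each member in marked against unmarked large-cell cultures, for 519-marked Terc-/- at 1 and 6 months and gaiwei-marked wild type at 1 month, with bars for the standard error and filled points where called. Ifit3 lies at -4.01 in 6-month Terc-/- and Rtp4 at -3.70 in 1-month wild type, and Bst2 is the filled point above 0 at 1 month.

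The marked libraries also had less of the osteoclast transcripts, with Ctsk, the collagen-degrading protease, at 32.5 to 175 scaled TPM against 1504 to 9656 in unmarked large-cell ones, and fewer genes at 1 TPM or more. Macrophage markers summed to 48240 to 92150 scaled TPM in marked against 13800 to 45190 in unmarked large-cell libraries, and Saa3 lay at 31810 to 123400 against 67.1 to 6484, both without overlap. The part of these in the result was not tested. In the wild-type comparison the mark cannot be told apart from sex: Eif2s3y, a gene of the Y chromosome, lay at 61.5 to 74.7 in gaiwei-marked and at 0 in unmarked libraries, and Xist at no more than 0.00358 against 51.6 to 70.8. Without scaling the median of all genes moved by -0.49 in gaiwei-marked wild type, -0.39 in 519-marked 1-month and -0.26 in 519-marked 6-month Terc-/-. The share of called genes that were higher was then 16.4%, 15.4% and 20.5%, against 51.9%, 55% and 51% with scaling.

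Between the marked sets, 13 members were lower and 1 higher at 6 than at 1 month in 519-marked Terc-/-, where the shares of all genes were 11.8% and 12%. Ifi27l2a had the largest fall, with 7.05, 7.83 and 8.11 scaled TPM at 6 months against 33.9, 35.3 and 17.1 at 1 month, without overlap (-1.72 ± 0.38, adjusted p = 0.0023 by limma). Bst2 fell by 1.32, with 460, 486 and 502 against 1208, 1297 and 1105, while Stat2 was 0.55 ± 0.17 higher (adjusted p = 0.0221). Macrophage markers summed to 48240 to 56970 scaled TPM at 6 months against 86120 to 92150 at 1 month in these libraries. Osteoclast markers summed to 1452 to 2590 against 861 to 942, and the part of both was not tested. The 1-month libraries themselves varied: Rtp4 was at 16.7, 5.93 and 2.63 there, and the count of lower members was 5 without replicate 1, 8 without replicate 2 and 19 without replicate 3, and that of higher members was 2 without replicate 1 and 0 without any other library of either group. In 519-marked Terc-/- against gaiwei-marked wild type at 1 month, 2 members were higher and 0 lower, where the shares of all genes were 1.58% and 1.87%. They were Rtp4 (1.38 ± 0.35, adjusted p = 0.0237) and Ifit3 (1.20 ± 0.34, adjusted p = 0.0489). Neither was called without replicate 1 or 2 of the 519-marked libraries or replicate 2 of the gaiwei-marked ones, and 4 members were called without 519-marked replicate 3. These groups differ in both genotype and the mark in their titles, so genotype and mark cannot be told apart here.

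Within groups most pairs of members were positively correlated. Over the deviations of the 30 libraries from their group means, the 780 pairs of members had a median correlation of 0.488, with 48.2% over 0.5 and 93 pairs below 0. Without the library that stood apart these were 0.519, 52.6% and 33. The pairs share libraries, their scaling and, for neighbours, sequence, and pairs of genes in general were not measured, so this is a description. The highest was Slfn5 with Dtx3l (0.927). Bst2 followed the others least, with a mean correlation of -0.116 (0.08 without that library). The genes outside the set whose deviations were nearest to the mean of the members were Mndal (0.846), a DNA-binding relative of Ifi204, Rnf213 (0.84), a giant ubiquitin ligase, Ifi209 (0.818), Sp100 (0.789), a nuclear body protein, and Ifi206 (0.785), followed by Ifi203, Epsti1, Irgm2, Parp12 and Gbp9 at 0.746 to 0.778. Without that library Irgm2 (0.86), Oas1g (0.849) and Rnf213 (0.845) were nearest. Members with the response element letters in their promoter window had a median span between groups of 2.55 on the log2 scale (17 genes), and those with a window but without the letters 2.04 (12 genes).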

How the data were processed

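RNA-seq of 30 libraries in 10 groups of 3 was deposited as 5 tables of 45706 genes. The deposited values are TPM, as read from columns that all share the fixed total of that unit, since the headers name none. Per the submitters' processing notes the authors used HTSeq and mm10, with no versions. No aligner is named in the sources used here. Depth is unknown, so no counting interval is given and no count model was used.

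Ensembl identifiers were paired with GENCODE M21 symbols (45143 matched). Libraries were scaled by trimmed means of log ratios without weights, dropping at both ends 30% of ratios and 5% of levels (factors 0.664 to 1.301). Genes averaging at least 1 TPM (12614) were tested as log2(scaled TPM + 1), which understates changes of low genes, with limma 3.58.1 in R 4.3.3 (10 group means, trend and robust moderation) in 16 contrasts. Benjamini-Hochberg adjustment ran over all genes within a contrast at 0.05. Printed levels are scaled TPM. Python 3.11.15, pandas 2.3.3, numpy 2.4.6 and matplotlib 3.10.9 were used for sequences and figures. The code was tested on simulated data.

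Alternatives were leaving out each library, fitting only the groups compared, a replicate block, TPM as deposited, median-ratio scaling, no filter and a pseudocount of 0.1. Variances per group, and leaving out 6-month wild-type large-cell replicate 2 under other settings, were added after seeing the data. The members, the lists and the panel of genes with values in each library were chosen with earlier results of these data known. In each comparison the 3 highest and 3 lowest called members could be named, and up to 4 called genes of each other list. Some results on genes of these lists are not reported here.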

Additional observations from a re-analysis of the deposited data

Results flagged for a closer look

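The change with differentiation differed between 20 and 6 months, in the test of that difference, for Ifi44 (2.94), Irgm1 (1.46), Dhx58 (-0.92), Cmpk2 (-1.13), Bst2 (-1.33), Rsad2 (-1.40), Oas1a (-1.60) and Ifi27l2a (-2.09), each as the log2 change at 20 months minus that at 6 months. Of these, Ifi44, Irgm1 and Oas1a were called under all 21 alternatives. As a set, members were called in this test no more often than genes in general. Bst2, Ifi27l2a and Oas1a had their highest 6-month large-cell value in the library that stood apart. It was 966 against 338 and 374 scaled TPM for Bst2, 162 against 97.1 and 46.0 for Ifi27l2a and 56.0 against 34.0 and 23.8 for Oas1a. Irgm1 had its lowest value there, 32.6 against 68.7 and 62.9, and so did Rsad2, Cmpk2 and Dhx58.

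The genotype difference at 6 months minus that at 1 month differed for Ifit3b (1.24) and Stat2 (0.86). Ifit3b lay at 2.86, 5.04 and 4.45 scaled TPM in Terc-/- and at 2.37, 0.967 and 2.22 in wild type at 6 months, and at 2.95, 5.34 and 2.995 in Terc-/- and 4.55, 6.14 and 4.60 in wild type at 1 month. Of the 50-base stretches of Ifit3b, 44.5% also occur in Ifit3.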

How the results depend on the processing

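Counts are of 40 members. With one variance per group (chosen after seeing the data), the count called higher was 18 in large-cell against 2-day cultures at 6 months, 0 in Terc-/- against wild type at 6 months, 22 at 20 against 6 months after 2 days (2 lower), 1 at 20 against 6 months in large-cell cultures (0 lower), 6 between the marked 1-month sets, 2 with age in 519-marked Terc-/- (21 lower) and 0 in the genotype interaction. It called 0 lower at 6 against 1 month and 2 lower in the differentiation interaction. With only the groups compared, the counts higher were 0 in Terc-/- against wild type at 6 months, 19 after 2 days (2 lower), 1 at 20 against 6 months in large-cell cultures (0 lower), 2 at 20 against 1 month, 1 between the marked sets, 0 with age in either Terc-/- set and 0 in the genotype interaction, and 0 were lower at 6 against 1 month. With a pseudocount of 0.1, 11 were higher after 2 days, 5 lower at 20 and 7 lower at 6 against 1 month, 1 higher between the marked sets, and 0 higher with age in unmarked Terc-/- and in the genotype interaction. With no filter, 1 was higher between the marked sets, 0 in the genotype interaction and 0 in Terc-/- at 1 month. Median-ratio scaling gave 1 in the genotype interaction. TPM as deposited gave 3 higher at 20 against 1 month, 0 lower at 20 against 6 months, 0 higher between the marked sets, 6 lower with age in 519-marked Terc-/-, 1 in the genotype interaction and 1 lower in Terc-/- at 1 month. Under it Ifi47 turned to -0.42 in 519-marked against unmarked 1-month Terc-/- (adjusted p = 0.0362 by limma), from 0.02. The causes were not tested.

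Leaving out 1 library at a time, with 6-month wild-type large-cell replicate 2 also left out under the 2 settings added later, gave 27 to 36 and 24 to 32 higher with differentiation at 6 and 20 months, 2 to 23 higher in 6-month Terc-/-, 0 to 2 higher and 1 to 4 lower in 1-month Terc-/-, 0 to 16 in the genotype interaction, and 2 to 5 higher with 4 to 7 lower in the differentiation interaction. For age it gave 2 to 10 higher and 1 to 2 lower after 2 days, 2 to 20 higher and 0 to 5 lower at 20 against 6 months, 1 to 3 higher and 5 to 11 lower at 20 against 1 month, 0 to 28 lower at 6 against 1 month, 0 to 1 higher in unmarked and 0 to 2 higher with 5 to 20 lower in 519-marked Terc-/-. For marked libraries it gave 0 to 1 higher with 17 to 25 lower, 24 to 33 lower and 28 to 33 lower, and 0 to 4 between the marked sets.

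The replicate numbers did not pair libraries: the correlations of same-numbered deviations were 0.271, -0.103 and 0.13 in the 6-month and 0.075, -0.332 and 0.292 in the 1-month genotype comparison. A replicate block lowered the count between the marked 1-month sets to 1 and moved no other count of members by over 1.5 times. Depth is unknown, which leaves the precision of members near 1 TPM, such as Mx2, unstated.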
